A study of Mus musculus with 40 samples.

Results

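The mitosis genes described here are 40 genes that act in the G2 and M phases of the cell cycle. They were given as a list of symbols, drawn up with earlier results of these data known, and each of the 40 matched 1 of the 57010 gene identifiers in the count table. Their RNA was followed in primary mouse macrophages that had been grown from bone marrow for days in L929-conditioned medium, which supplies the growth factor M-CSF. Both genotypes carried a floxed Otulin gene, which encodes a deubiquitinase for linear ubiquitin chains. WT denotes the genotype OtulinFL/FL, and KO denotes OtulinFL/FL LysMCreTg/WT, which adds Cre recombinase driven by the LysM promoter of myeloid cells. Cells were taken before lipopolysaccharide (LPS, a bacterial surface glycolipid sensed by macrophages) and 3, 6, 12 and 24 h after 500 ng/ml of ultrapure LPS from Salmonella minnesota. Each of the 10 groups had 4 replicates, which gave 40 libraries. Strain and age of the mice were not given in the sources used here. Cre was present only together with floxed Otulin, so loss of Otulin and presence of Cre cannot be told apart. The labels name no untreated sample after 0 h, so hours of LPS and further hours in culture cannot be told apart either.

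Mitosis is driven by cyclin-dependent kinase 1 (CDK1) bound to cyclin A or B. The spindle checkpoint holds cells in metaphase until every kinetochore is attached, and the anaphase-promoting complex, activated by CDC20, then marks cyclin B and securin for destruction. The genes of this programme are transcribed late in the cell cycle by the MuvB complex with B-MYB and FOXM1, acting at the cell cycle genes homology region (CHR) and at CCAAT boxes bound by NF-Y. In resting cells the DREAM complex, which shares the MuvB core, represses them. Macrophages in M-CSF divide, and activation by LPS is known to stop that division.

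The libraries held 3615155 to 6829303 counts, with a median of 4471933. Levels are given as CPM, counts scaled to TMM-normalized library totals. Reads of this assay mark only the 3′ end of a transcript, so CPM does not grow with gene length. How well CPM can be compared between genes was not tested. The 8 macrophage markers summed to 3734 to 7931 CPM per library and none was at 0 in any library. The 8 myeloid progenitor markers summed to 4.09 to 10.2 CPM per library at 0 h and to 0.404 to 3.87 CPM at 24 h. In WT they summed to 4.99 to 10.2 CPM at 0 h, 5.33 to 8.73 CPM at 3 h and 4.87 to 8.14 CPM at 6 h. In KO they summed to 4.09 to 6.51, 4.51 to 9.09 and 2.29 to 4.94 CPM at these times. The progenitor sums at 3 h and 6 h thus overlapped those at 0 h, while the mitosis genes were already lower. Of the defining genes of progenitors, Elane, Flt3, Kit and Myb were at 0 in 20, 16, 12 and 12 of the 40 libraries, Ctsg in 10, Mpo in 3, Prtn3 in 2 and Cd34 in none. Summed markers of other cell types differed between times as well: in WT the 6 monocyte markers summed to 128 to 172 CPM at 0 h, 429 to 594 CPM at 6 h and 179 to 211 CPM at 24 h. From 0 h to 24 h in WT, the 10 neutrophil markers went from 34.9 to 43.8 CPM up to 77.4 to 85.6 CPM, the 6 dendritic cell markers from 1.48 to 3.74 CPM up to 14.2 to 20.9 CPM, and the 6 mast cell and basophil markers from 1.14 to 2.14 CPM down to 0.230 to 0.667 CPM. Csf3r, S100a8 and S100a9 had the highest medians of the neutrophil markers, at 29.5, 24.4 and 11.9 CPM. Retnlg and Ly6g were at 0 in 38 of the 40 libraries, Ltf in 22, Camp and Cxcr2 in 10 and Wfdc21 in 2. Ccr7 had the highest median of the dendritic cell markers, at 5.65 CPM. Xcr1 was at 0 in 24 libraries, Flt3 in 16, Siglech in 15, Clec9a in 7 and Ccr7 in 3. Whether these sums stand for such cells was not tested. Some sums also lay apart between genotypes. At 24 h the neutrophil markers summed to 77.4 to 85.6 CPM in WT and 60.7 to 65.5 CPM in KO. The macrophage markers summed to 5978 to 7671 CPM in WT and 5511 to 5951 CPM in KO at 24 h. The monocyte and dendritic cell sums of the genotypes overlapped at that time. The part of these markers in the results was not tested. Otulin, the targeted gene, was counted in all 40 libraries. It lay at 36.3 to 47.4 CPM in WT and 31.3 to 33.4 CPM in KO at 3 h, and at 35.6 to 42.2 and 28.9 to 33.4 CPM at 6 h. At 24 h KO was above WT, at 45.1 to 51.6 against 27.6 to 37.0 CPM, and at 0 h and 12 h the genotypes overlapped. A 3′ tag can lie outside the deleted part of a gene, so these levels do not check the genotype labels. Replicates KO 3 and WT 4 had Xist at 0.250 to 2.24 CPM in their 10 libraries and the others had 226 to 605 CPM, so these replicates were male and the others female. The labels do not say whether replicates came from separate mice or cultures, so the p-values measure the spread between these samples.

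The mitosis genes fell steeply after LPS in both genotypes. Their CPM summed over the 40 genes was 4482, 4473, 3898 and 3486 in WT 1 to WT 4 at 0 h, and 719, 785, 863 and 926 in the same order at 24 h. In KO 1 to KO 4 the sums were 3402, 4112, 4124 and 3771 at 0 h, and 794, 831, 783 and 919 at 24 h. Every library at 24 h lay far below every library at 0 h. The WT sum went from 4085 ± 484 (SD, n = 4) at 0 h to 2690 ± 323 at 3 h, 1439 ± 94.7 at 6 h, 800 ± 107 at 12 h and 824 ± 90.3 at 24 h. The KO sum went from 3852 ± 342 to 2641 ± 87.4, 1401 ± 72.6, 726 ± 94.9 and 832 ± 61.7 at the same times. The sum was no lower at 24 h than at 12 h, and 20.2% of the 0 h level was left at 24 h in WT and 21.6% in KO. Abundant genes weigh most in this sum. Smc4 alone averaged 267 CPM at 12 h and 313 CPM at 24 h in WT, and 245 and 301 CPM in KO. It kept 58.0% of its 0 h mean at 24 h in WT, so the sum understates the fall of most of the genes. As an unscaled share of all counts in a library, the genes took 0.434% to 0.576% in WT at 0 h and 0.0720% to 0.0953% at 24 h. The WT share was 0.213% to 0.295% at 3 h and 0.118% to 0.133% at 6 h. The size of the early fall thus depends on the scaling, and it was larger without it. In these bulk samples fewer dividing cells and less of this RNA per cell cannot be told apart.

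**Figure D1:**
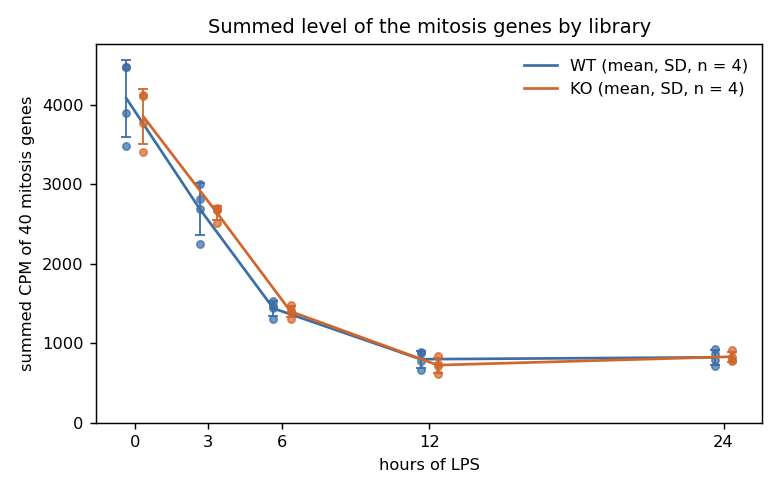
Summed CPM of the 40 mitosis genes (vertical axis) by hours of LPS (horizontal axis). Each point is 1 library, lines join the means of 4 WT or 4 KO libraries and bars are SD. Sums fall from 3402 to 4482 CPM at 0 h to 719 to 926 CPM at 24 h, with both genotypes overlapping at each time.

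Gene by gene, the change was tested with edgeR's quasi-likelihood test across all genes of a genotype, with an adjusted p under 0.05 as the threshold. In WT, 34 of the 40 mitosis genes were lower than at 0 h by 3 h, and all 40 were lower at 6, 12 and 24 h. None was higher at any of these times. The share of all tested genes that was lower was 28.0% at 3 h, 37.1% at 6 h, 35.9% at 12 h and 35.4% at 24 h. The median log2 fold change of the mitosis genes was −0.83 at 3 h, −1.97 at 6 h, −3.27 at 12 h and −3.27 at 24 h, and over all 12151 genes tested it was −0.05, −0.09, −0.07 and −0.02. In KO, 33 of 40 were lower at 3 h, 39 at 6 h, 39 at 12 h and 40 at 24 h, and none was higher. The matching shares of all genes were 25.7%, 36%, 34.0% and 33.0%. The KO medians were −0.70, −2.04, −3.42 and −3.15, against −0.04, −0.11, −0.07 and −0.01 over the 12037 genes tested. From one time to the next, 38 WT genes were lower at 6 h than at 3 h (21.9% of all genes) and 35 were lower at 12 h than at 6 h (23.4%). In KO these counts were 37 (21.6%) and 34 (22.0%).

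**Figure D2:**
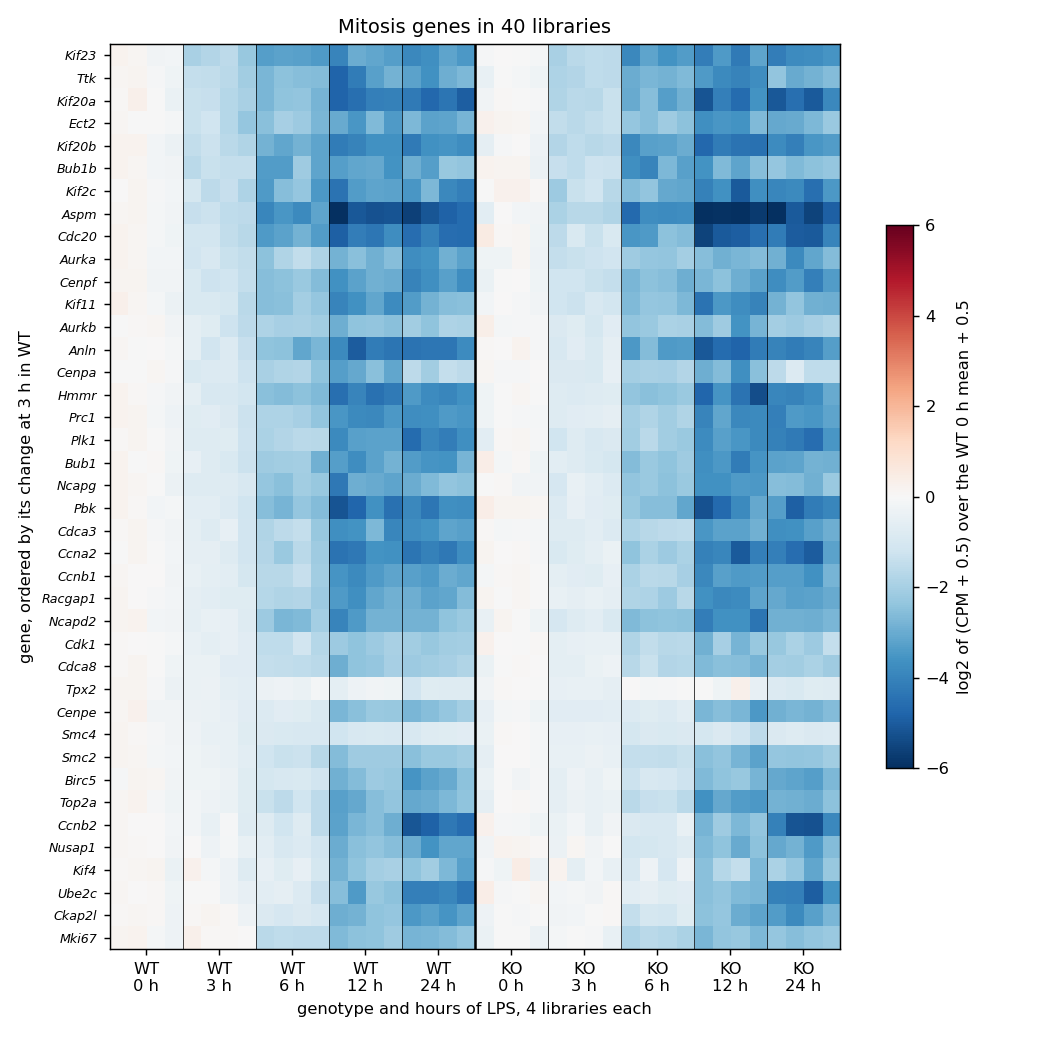
All 40 mitosis genes (rows, ordered by their change at 3 h in WT) in the 40 libraries (columns, 4 per genotype and time). Colour is log2 of CPM plus 0.5 over the mean of WT at 0 h plus 0.5. Blue deepens from 3 h to 12 h in nearly every row, while Tpx2 and Smc4 stay pale and Cenpa pales again at 24 h.

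Promoters of most of these genes hold shared letters, shown here as a description of the listed genes. A part of these letters in the falls was not tested. The RefSeq promoter table (GRCm38.p6) gave 36 windows for 34 of the 40 genes, each from 250 bases before to 50 after the start site. The other 6 (Aurkb, Ccna2, Kif20a, Pbk, Smc4 and Tpx2) had no window and were not searched. Among them, Smc4 and Tpx2 had the smallest falls of the 40 at 24 h in WT. The counts in the data rest on GRCm39, and coordinates below are those of GRCm38.p6 for the printed sequences only. The CHR was searched as TTTGAA or TTCGAA and the CCAAT box as CCAAT, each on both strands and counted whatever other letters they overlapped. A CHR stood in 32 of the 36 windows (88.9%), and in 19.2% of all 32851 windows of the table. A CCAAT box stood in 31 (86.1%, against 37.4%), at least 2 CCAAT boxes in 21 (58.3%, against 11.7%), and both a CHR and a CCAAT box in 29 (80.6%, against 7.53%). The letters TATAAA stood in 1 window (2.78%, against 13.6%). A CHR between 60 bases before and 50 after the start, a range set after the positions were seen, stood in 29 windows (80.6%, against 5.90%). The windows of Birc5, Ccnb1, Cenpe and Nusap1 held no CHR letters, which says only that the letters are absent there. At 24 h in WT these genes stood at 12.3%, 10.4%, 18.7% and 10.2% of their 0 h means. A match is a description of the sequence and not a bound site.

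Ccnb2, the cyclin B2 gene, had the largest fall of its role group, and the stretch from 95 bases before to 12 after its start (chr9:70421543-70421649, minus strand) shows the arrangement, with capitals for 3 CCAAT boxes and the CHR.
Ccnb2: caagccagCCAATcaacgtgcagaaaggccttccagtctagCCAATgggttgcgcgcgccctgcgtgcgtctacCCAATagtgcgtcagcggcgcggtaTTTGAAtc

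The CHR nearest the start, in capitals, is given below for 1 gene from each of 6 other role groups, each read on its own strand, to show the letters around it. The capitals are alike because they are the letters searched for. The windows lie at chr2:118598239-118598260 (plus strand, cut at the edge of the table's window) for Bub1b, chr4:118437344-118437373 (minus) for Cdc20, chr4:117178858-117178887 (minus) for Kif2c, chr1:139454767-139454796 (plus) for Aspm, chr15:99651634-99651663 (minus) for Racgap1 and chr11:99024195-99024224 (minus) for Top2a.
Bub1b: agagacgttaaaTTTGAAactt
Cdc20: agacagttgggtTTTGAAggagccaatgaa
Kif2c: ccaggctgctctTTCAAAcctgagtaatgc
Aspm: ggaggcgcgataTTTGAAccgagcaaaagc
Racgap1: ctggtgcgtgatTTTGAAccggatctggcg
Top2a: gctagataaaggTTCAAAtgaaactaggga

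In Aspm, Racgap1 and Ccnb2 the CHR began 7, 6 and 5 bases after the start. In Kif2c and Top2a it was read on the opposite strand, beginning at −103 and −23 on the gene's own strand.

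**Figure D3:**
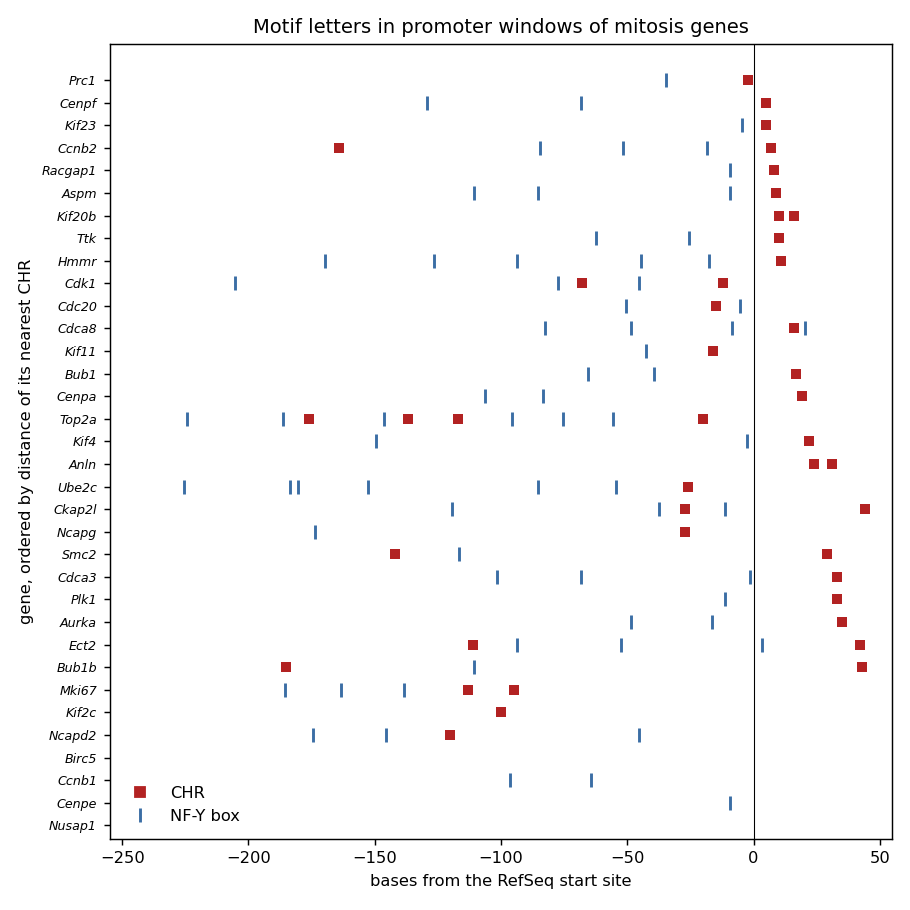
Positions of CHR letters (red squares) and of CCAAT letters (blue ticks, called NF-Y box in the key) on either strand in the first RefSeq window of 34 mitosis genes (rows), in bases from the start site. The ticks are letter matches, and binding by NF-Y was not measured. Most rows have a CHR close to the start with 1 or more blue ticks before it. Birc5, Ccnb1, Cenpe and Nusap1 at the bottom have no red square.

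Among the mitotic cyclins and Cdk1, the 4 genes fell with a median log2 fold change of −3.76 at 24 h in WT. Ccnb2 (ENSMUSG00000032218) lay at 36.3, 34.2, 34.2 and 29.8 CPM in WT 1 to WT 4 at 0 h and at 0.474, 0.667, 1.24 and 0.919 CPM at 24 h. In KO 1 to KO 4 it lay at 40.6, 31.6, 31.4 and 28.1 CPM at 0 h and at 1.55, 0.443, 0.404 and 1.85 CPM at 24 h. The 0 h and 24 h values were far apart in both genotypes. Ccnb2 had only 17 counts over the WT libraries and 23 over the KO libraries at 24 h, so the size of its fall is uncertain. Its log2 fold change at 24 h was −5.24 ± 0.25 (SE) in WT (edgeR adjusted p = 8.72e-16) and −4.86 ± 0.25 in KO (adjusted p = 2.24e-14). Yet at 3 h it was at 78.4% of its 0 h mean in WT and at 82.8% in KO, so most of its fall came after 3 h. Cdk1 (ENSMUSG00000019942), the kinase these cyclins activate, fell least of the 4, from 133 ± 7.97 CPM to 30.2 ± 2.13 CPM in WT and from 141 ± 11.8 to 35.1 ± 9.77 CPM in KO. Ccna2 and Ccnb1, for cyclins A2 and B1, changed by −4.27 ± 0.18 and −3.25 ± 0.15 on the log2 scale at 24 h in WT.

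The 6 mitotic kinases and checkpoint genes fell early, with a median of −1.05 at 3 h and −3.48 at 24 h in WT. Pbk (ENSMUSG00000022033), a kinase active in mitosis, lay at 31.4, 29.3, 24.2 and 25.2 CPM in WT 1 to WT 4 at 0 h and at 1.42, 0.890, 1.70 and 1.61 CPM at 24 h. Its KO values were 36.2, 31.0, 31.0 and 29.7 CPM at 0 h and 2.32, 0.443, 1.01 and 1.34 CPM at 24 h. Bub1b (ENSMUSG00000040084), which encodes the checkpoint protein BUBR1, showed another course. It lay at 20.5, 19.4, 15.6 and 15.1 CPM in WT at 0 h, and by 3 h it was at 5.47, 6.76, 6.35 and 6.14 CPM, with no overlap. At 6 h it averaged 1.93 ± 1.15 CPM and at 24 h 2.37 ± 0.903 CPM, so its fall was over by 6 h. Ttk, the checkpoint kinase MPS1, changed by −1.65 ± 0.19 on the log2 scale at 3 h in WT, one of the largest early changes. Plk1, Aurka and Bub1, further kinases of mitotic entry, spindle poles and kinetochores, changed by −0.86, −1.24 and −0.85 at 3 h and by −4.14, −3.44 and −3.52 at 24 h.

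Cdc20, Ube2c and Cdca3 act with ubiquitin ligases that end mitosis or permit its entry. Cdc20 (ENSMUSG00000006398), the activator of the anaphase-promoting complex, lay at 26.3, 24.8, 20.9 and 19.0 CPM in WT 1 to WT 4 at 0 h and at 0.474, 0.890, 0.464 and 0.460 CPM at 24 h. In KO it lay at 32.6, 24.1, 24.7 and 19.1 CPM at 0 h and at 0.773, 0.222, 0.202 and 1.01 CPM at 24 h. The 24 h means rest on 11 counts over the WT libraries and 12 over the KO libraries, and the KO mean at 12 h on 4 counts, so the size of these falls is uncertain. Ube2c, the ubiquitin-conjugating enzyme of that complex, was slow: it changed by −0.20 ± 0.15 at 3 h in WT and did not pass the test (adjusted p = 0.280), and by −4.26 ± 0.22 at 24 h. Cdca3, a factor that promotes destruction of the kinase WEE1, went from 47.5 ± 5.04 to 4.01 ± 0.821 CPM in WT and from 45.2 ± 2.90 to 4.19 ± 1.15 CPM in KO. In GENCODE vM21, Elovl1 and Tnnc2 on the other strand overlap the final 1000 bases of Cdc20 and Ube2c. Such a gene also overlaps Ccna2, Ckap2l, Prc1, Kif20a and Ncapg. The handling of strand in the counting is not given in the sources used here, so the values of these 7 genes are less certain.

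The 3 genes of the chromosomal passenger complex, which corrects faulty kinetochore attachments, had a median log2 fold change of −2.14 at 24 h in WT. Birc5 (ENSMUSG00000017716), for survivin, lay at 173, 207, 196 and 156 CPM in WT 1 to WT 4 at 0 h and at 15.4, 19.4, 22.1 and 33.3 CPM at 24 h. In KO it lay at 140, 182, 157 and 176 CPM at 0 h and at 21.6, 20.2, 17.8 and 27.9 CPM at 24 h. Cdca8 (ENSMUSG00000028873), for borealin, fell least, from 87.7 ± 10.8 to 21.3 ± 2.37 CPM in WT and from 84.1 ± 12.2 to 20.9 ± 1.35 CPM in KO. Aurkb, the kinase of the complex, changed by −2.14 ± 0.18 in WT and −2.11 ± 0.19 in KO at 24 h.

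At the centromere and kinetochore, Kif2c and Cenpa moved differently. Kif2c (ENSMUSG00000028678), a microtubule depolymerase, lay at 16.2, 18.1, 15.3 and 14.0 CPM in WT 1 to WT 4 at 0 h and at 0.949, 2.00, 0.619 and 0.460 CPM at 24 h. Cenpa (ENSMUSG00000029177), the histone H3 variant that marks centromeres, lay at 123, 120, 135 and 116 CPM in WT at 0 h. It was at 11.8, 14.4, 21.2 and 13.9 CPM at 12 h and at 40.5, 28.5, 45.3 and 41.4 CPM at 24 h, so the 12 h and 24 h values did not overlap. In KO it went from 135, 116, 118 and 126 CPM at 0 h to 15.9, 20.0, 9.00 and 21.3 CPM at 12 h and 41.1, 70.0, 42.2 and 42.8 CPM at 24 h. Cenpa thus reached its lowest level at 12 h and stood at 31.6% of its 0 h mean at 24 h in WT and at 39.7% in KO. Cenpe and Cenpf, motor and scaffold proteins of the outer kinetochore, changed by −2.41 ± 0.13 and −3.67 ± 0.16 at 24 h in WT.

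Among the 7 spindle assembly and chromokinesin genes, Aspm had one of the largest falls of the 40 at 24 h and Tpx2 one of the smallest. Aspm (ENSMUSG00000033952), which focuses spindle poles, lay at 86.1, 90.8, 73.5 and 70.3 CPM in WT 1 to WT 4 before LPS. At 6 h it was at 4.91, 6.61, 5.18 and 8.62 CPM, and by 24 h at 1.19, 1.78, 2.32 and 2.76 CPM. In KO it lay at 52.3, 80.7, 71.5 and 70.1 CPM at 0 h and at 0.773, 1.99, 1.21 and 2.18 CPM at 24 h. Its log2 fold change at 24 h was −5.28 ± 0.18 in WT (edgeR adjusted p = 7.33e-19) and −5.45 ± 0.22 in KO (adjusted p = 1.08e-16). Tpx2 (ENSMUSG00000027469), which activates Aurora A on spindle microtubules, kept much of its RNA. Its WT values were 114, 113, 97.2 and 79.3 CPM before LPS, 67.6, 82.4, 87.0 and 84.2 CPM after 12 h, and 45.5, 60.7, 58.9 and 59.3 CPM after 24 h. In KO it averaged 98.5 ± 9.32 CPM at 0 h, 72.1 ± 2.37 at 3 h, 98.0 ± 5.10 at 6 h, 95.1 ± 23.2 at 12 h and 57.4 ± 3.71 at 24 h. Tpx2 was the only 1 of the 40 that was not lower at 6 h and 12 h in KO, with log2 fold changes of −0.02 ± 0.12 and −0.07 ± 0.12, and it rose from 3 h to 6 h there (0.44 ± 0.12, edgeR adjusted p = 0.00509). Kif11, Kif4, Nusap1, Hmmr and Ckap2l, for spindle motors and microtubule-associated proteins, changed by −2.84, −2.90, −3.29, −3.79 and −3.48 at 24 h in WT.

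The 7 central spindle and cytokinesis genes had the lowest median log2 fold change of the 8 role groups at 3 h in WT (−1.55), with all 7 lower. Kif20a (ENSMUSG00000003779), a kinesin of the central spindle, lay at 37.6, 44.1, 35.4 and 27.4 CPM in WT 1 to WT 4 before LPS, with 13.9, 13.5, 10.7 and 9.08 CPM left after 3 h and 1.42, 0.890, 1.24 and 0.689 CPM after 24 h. The KO values were 30.9, 37.4, 35.9 and 34.1 CPM before LPS, 9.89, 11.3, 11.1 and 14.1 CPM after 3 h, and 0.580, 1.11, 0.606 and 2.02 CPM after 24 h. Racgap1 (ENSMUSG00000023015), a subunit of centralspindlin, fell least of the 7 at 24 h in WT, from 60.6 ± 6.49 to 7.38 ± 1.51 CPM, and went from 62.9 ± 4.51 to 6.46 ± 0.527 CPM in KO, where Ect2 fell least (−2.90 ± 0.18 against −3.27 ± 0.13 for Racgap1 on the log2 scale). Kif23, the other centralspindlin subunit, had the largest change of all 40 at 3 h in WT, −1.88 ± 0.14. Ect2, the exchange factor that centralspindlin recruits for the contractile ring, changed by −1.59 ± 0.17 at that time. Kif20b, Anln and Prc1, a kinesin, a ring scaffold and a microtubule bundler, changed by −3.82, −4.55 and −3.63 at 24 h.

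The 6 genes of mitotic chromosome structure, among them the abundant Top2a and Smc4, had a median log2 fold change of −2.61 at 24 h in WT. Top2a (ENSMUSG00000020914), the topoisomerase that untangles sister chromatids, lay at 478, 506, 420 and 365 CPM in WT 1 to WT 4 at 0 h and at 51.5, 55.8, 67.9 and 83.6 CPM at 24 h. In KO it lay at 299, 456, 468 and 416 CPM at 0 h and at 61.0, 60, 56.4 and 79.6 CPM at 24 h. Smc4 (ENSMUSG00000034349), a core subunit of condensin, lay at 611, 573, 507 and 465 CPM in WT at 0 h and at 280, 315, 321 and 334 CPM at 24 h, the smallest fall of the 40 at that time (−0.79 ± 0.09, edgeR adjusted p = 1.36e-08). Its partner Smc2 changed by −2.28 ± 0.12, and the condensin subunits Ncapg and Ncapd2 by −2.66 ± 0.16 and −2.59 ± 0.17. Mki67 (ENSMUSG00000031004), for the chromosome surface protein Ki-67 used as a marker of dividing cells, had not fallen at 3 h. Its WT values were 262, 270, 219 and 194 CPM before LPS, 294, 251, 252 and 242 CPM after 3 h, 77.5, 82.7, 78.6 and 78.1 CPM after 6 h, and 34.1, 34.9, 38.4 and 44.8 CPM after 24 h. The 0 h and 3 h values overlapped, and all values at 6 h were below them.

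**Figure D4:**
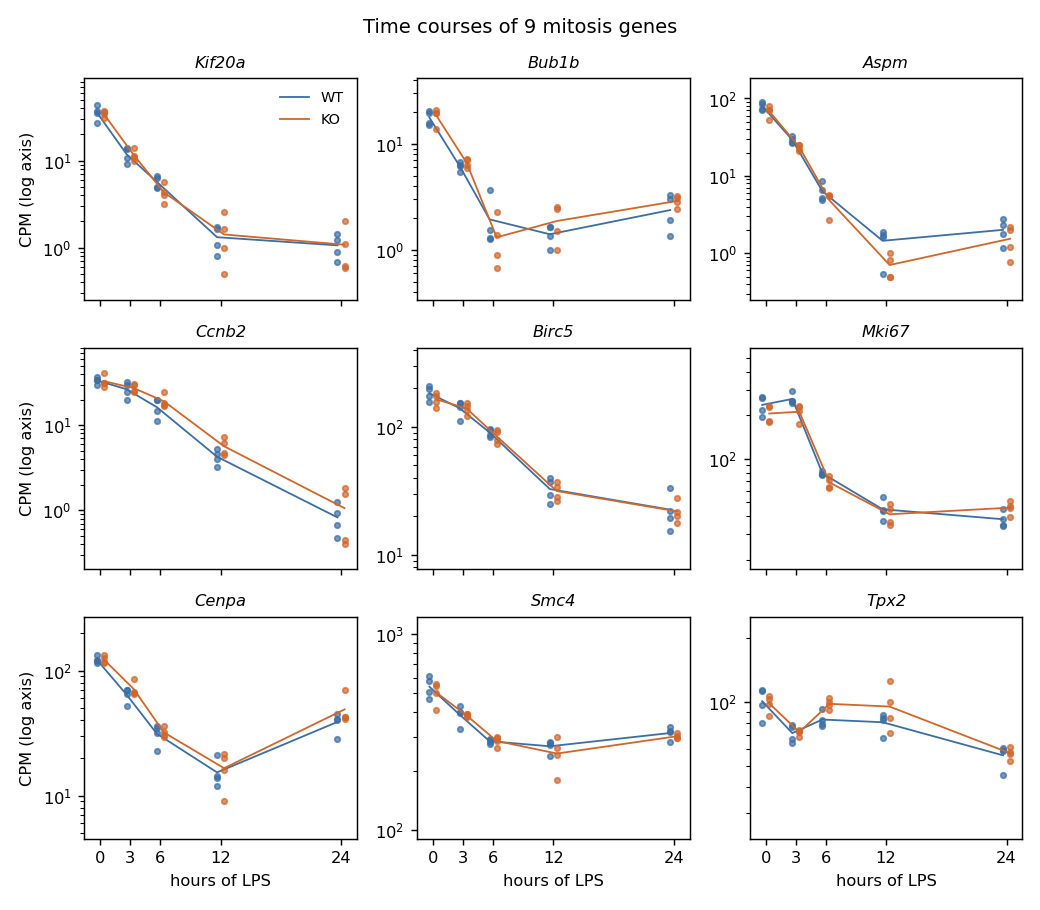
CPM on a log axis of 9 mitosis genes by hours of LPS. Points are libraries and lines join the means of 4 WT (blue) or 4 KO (orange) libraries. At 3 h in WT, Kif20a, Bub1b and Aspm stand at 32.6%, 35.0% and 36.3% of their 0 h mean, Ccnb2 and Birc5 at 78.4% and 76.5%, and Mki67 at 110%. Cenpa turns up after 12 h, and Smc4 and Tpx2 keep over 50% of their 0 h mean at 24 h.

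The genes differed in when they fell. In WT at 3 h the largest changes were those of Kif23 (−1.88), Ttk (−1.65), Kif20a (−1.60), Ect2 (−1.59), Kif20b (−1.55), Bub1b (−1.51), Kif2c (−1.50) and Aspm (−1.46). The 6 genes that did not pass the test at 3 h in WT were Mki67 (0.13), Ckap2l (0.02), Ube2c (−0.20), Kif4 (−0.20), Nusap1 (−0.20) and Top2a (−0.39). Top2a did pass it in some of the alternative fits given below. In KO 7 genes did not pass at 3 h, which were Mki67, Ckap2l, Nusap1, Kif4, Ube2c, Birc5 and Ccnb2, with log2 fold changes between −0.29 and 0.03. Of these, Mki67, Ckap2l, Nusap1, Kif4 and Ube2c missed the threshold in both genotypes. The early and slow genes of WT and KO were much the same: across the 40 genes Pearson's r between the log2 fold changes of WT and KO was 0.976 at 3 h, 0.982 at 6 h, 0.950 at 12 h and 0.975 at 24 h. These correlations are across genes, which share libraries and are not replicates.

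From 12 h to 24 h the genes parted. In WT 8 were lower at 24 h than at 12 h (20.5% of all genes were lower) and 6 were higher (19.1% of all genes), shares of the 40 that lie close to the background. In KO 5 were lower (18.8% of all genes) and 17 were higher (18.1% of all genes). The 5 lower in KO were also lower in WT: Ccnb2, Ube2c, Birc5, Cenpf and Tpx2. The 6 higher in WT were also higher in KO: Cenpa, Hmmr, Kif11, Ncapd2, Ncapg and Smc4. Ccnb2 fell furthest over this step, by 2.29 ± 0.36 on the log2 scale in WT (edgeR adjusted p = 1.83e-05) and by 2.32 ± 0.32 in KO (adjusted p = 4.51e-06), and Ube2c fell by 1.62 ± 0.28 and by 1.63 ± 0.21. The 24 h counts of Ccnb2 were few, 17 over the WT and 23 over the KO libraries. Cenpa rose most, by 1.31 ± 0.17 in WT (edgeR adjusted p = 3.33e-06) and 1.57 ± 0.19 in KO (adjusted p = 1.63e-06), and in KO the rise was between 1.43 and 1.74 with any 1 replicate left out. The step counts changed when 1 replicate was left out, in fits that hold fewer libraries. Without replicate 2 or without replicate 3, 5 WT genes were lower, and without replicate 1, 2 or 3 no more than 3 WT genes were higher. Without KO 3 the higher KO genes numbered 9, and without KO 4 they numbered 10. In all 4 such fits 3 genes remained lower and 1 higher in WT, and 4 remained lower and 8 higher in KO. In WT the call for Smc4 was lost whichever replicate was left out, while its log2 change stayed at 0.21 to 0.24 (0.23 with all), and that for Birc5 was lost without WT 1, WT 2 or WT 3 (−0.53, −0.53 and −0.42, against −0.55 with all).

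The second question of the design, whether the mitosis genes differed between KO and WT, gave no called gene. At 0 h, 3 h, 6 h, 12 h and 24 h, 40, 40, 37, 31 and 33 of the 40 genes passed the filter on low counts in the 8 libraries of that time. Of these, edgeR called 0 at each time and DESeq2 also called 0, while 0, 4, 3, 5 and 2 had an unadjusted p under 0.05, as did 7.67%, 11.7%, 12.0%, 7.72% and 7.46% of all genes tested. Of all genes tested, 0%, 0.689%, 1.01%, 0.0464% and 0.0809% were called at the same times. The smallest adjusted p among the mitosis genes was 0.682, 0.161, 0.277, 0.381 and 0.533. The median KO minus WT difference on the log2 scale was −0.07 at 0 h, 0.00 at 3 h, −0.12 at 6 h, −0.18 at 12 h and 0.05 at 24 h, and over all genes it was within 0.01 of 0 at every time. A p above the threshold does not show that the genotypes were alike.

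**Figure D5:**
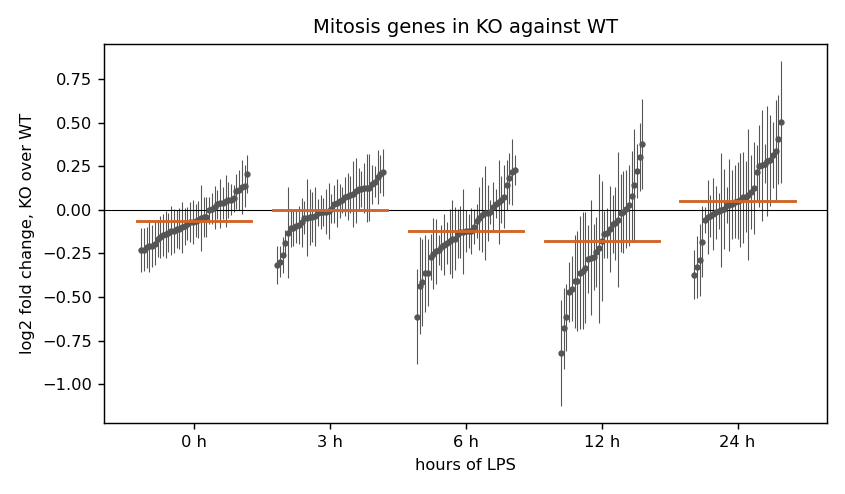
Log2 fold change of KO over WT (vertical axis) for each mitosis gene tested at each time, with SE as bars and the median as an orange line. The points spread around 0 at all 5 times, from −0.82 at 12 h to 0.50 at 24 h, and none passed edgeR's test.

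Few genes had KO and WT values apart. Mki67 lay at 214, 233, 227 and 174 CPM in KO 1 to KO 4 at 3 h, all below the 242 to 294 CPM of WT, with a log2 difference of −0.30 ± 0.09 (edgeR adjusted p = 0.161). At 6 h it lay at 64.2, 76.3, 70.8 and 62.8 CPM in KO, again below every WT value (−0.23 ± 0.09, adjusted p = 0.291). At 24 h its difference was on the other side of 0 (0.26 ± 0.11, adjusted p = 0.613). Aspm at 3 h lay at 21.2, 25.1, 25.2 and 22.4 CPM in KO and at 26.7 to 32.3 CPM in WT (−0.32 ± 0.11, edgeR adjusted p = 0.233). Kif20b at 12 h lay at 3.98, 5.86, 5.00 and 4.83 CPM in KO and at 5.92 to 9.19 CPM in WT (−0.68 ± 0.23, edgeR adjusted p = 0.440). So 0, 2, 1, 1 and 0 genes had values that did not overlap at the 5 times, while of all genes tested 5.02%, 6.24%, 7.81%, 5.03% and 4.41% did. Without the filter on low counts, edgeR called Mki67 at 3 h (adjusted p = 0.0151) and Top2a at 12 h (−0.61, adjusted p = 0.00254), and these 2 calls were absent with the filter.

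An interaction term, fitted to the 16 libraries of 0 h and 1 later time, asked whether the change since 0 h differed with genotype. Neither edgeR nor DESeq2 called any of the 40 genes at 3, 6, 12 or 24 h, and 0, 1, 2 and 2 of them had an unadjusted p under 0.05. Of all genes tested, 0%, 0%, 0% and 0.00818% were called, and 2.81%, 4.37%, 3.26% and 3.88% had an unadjusted p under 0.05, so the counts of mitosis genes lie close to the background. Because 17 KO genes and 6 WT genes were higher at 24 h than at 12 h, the step itself was compared between genotypes, a test added after the data were seen. Of 34 mitosis genes tested, 26 had a difference above 0 (KO minus WT), as did 47.7% of all 11486 genes tested, with a median of 0.22 on the log2 scale against −0.01 over all genes. Genes that move together are not independent, and edgeR and DESeq2 each called 0 of the 34. An unadjusted p under 0.05 was found for 3 of them and for 3.25% of all genes tested, of which 0% were called.

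Other genes of mitosis and of its control, listed by function, largely fell too, but some groups did not. The counts below are for 24 h against 0 h in WT, where 35.4% of all genes were lower and 34.5% higher. Of 37 other kinetochore and checkpoint genes 33 were lower and 0 higher, with a median of −1.64. Knl1, the kinetochore scaffold, went from 44.5 ± 6.46 to 3.19 ± 1.76 CPM and Sgo1, the protector of centromeric cohesin, from 35.8 ± 5.08 to 2.62 ± 0.662 CPM. Cenpm, of the inner kinetochore, changed by −4.29 ± 0.34, and Cenpc1, which binds the centromeric nucleosome, by −0.53 ± 0.09. Of 20 other spindle and cytokinesis genes 19 were tested, 17 were lower and 0 higher, with a median of −3.14. Kif14, a cytokinesis kinesin, went from 37.2 ± 7.70 to 1.02 ± 0.436 CPM. Ckap2 and Knstrn, spindle proteins, changed by −4.72 ± 0.28 and −4.16 ± 0.23, and Tacc3 by −1.46 ± 0.10. All 4 other condensin subunits were lower (median −1.68), from Ncaph (−2.57 ± 0.27) and Ncapg2 (−2.35 ± 0.20) to Ncapd3 (−1.02 ± 0.15) and Ncaph2 (−0.34 ± 0.10).

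Of 11 other CDK1 regulators 10 were lower and 0 higher, with a median of −1.37. Cks1b, a small CDK-binding subunit, went from 146 ± 10.7 to 22.0 ± 2.60 CPM. Ccnf, for cyclin F, had its lowest point early, with a log2 fold change of −4.00 ± 0.24 at 6 h and −2.24 ± 0.18 at 24 h. Pkmyt1, an inhibitory kinase of CDK1, rose at 3 h (0.47 ± 0.13, edgeR adjusted p = 0.00419) and fell by 1.92 ± 0.17 on the log2 scale at 24 h, and Arpp19, a phosphatase inhibitor of mitotic entry, changed by −0.31 ± 0.07. Of 16 subunits and regulators of the anaphase-promoting complex 5 were lower and 3 higher, with a median of −0.06, and the other 8 did not pass the test. Fbxo5, for the inhibitor EMI1, fell from 35.6 ± 2.26 to 3.00 ± 0.830 CPM. The subunits Anapc15 and Anapc11 changed by −0.77 ± 0.13 and −0.62 ± 0.08, and Cdc26 rose by 0.62 ± 0.15 (edgeR adjusted p = 6.53e-04).

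Of 13 genes of cohesin, separase and securin 9 were lower and 3 higher, with a median of −0.48. Esco2, the cohesin acetyltransferase of S phase, changed by −2.89 ± 0.23 and Smc3, a cohesin core subunit, by −1.23 ± 0.08. Pttg1, for securin, which holds separase inactive until anaphase, moved against the mitosis genes. It rose from 31.7 ± 1.48 to 138 ± 7.04 CPM, a log2 fold change of 2.12 ± 0.08 (edgeR adjusted p = 1.81e-17) in WT and 2.15 ± 0.11 in KO. Wapl, which releases cohesin from DNA, rose by 0.23 ± 0.07 (edgeR adjusted p = 0.00508).

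Among 19 tested regulators of the MuvB, B-MYB, FOXM1, pocket protein and E2F families 11 were lower and 5 higher, with a median of −0.52. Foxm1, an activator of mitosis genes, fell from 35.4 ± 5.19 to 3.29 ± 1.47 CPM in WT. Its log2 fold change was already −1.29 ± 0.17 at 3 h. Tfdp2 and E2f8, of the E2F family, changed by −2.05 ± 0.21 and −1.72 ± 0.20, and Lin37, a MuvB subunit needed for repression, rose by 0.80 ± 0.22 (edgeR adjusted p = 0.00203). Of 40 genes of DNA replication and nucleotide synthesis, which act in S phase before mitosis, 31 were lower and 4 higher, with a median of −1.29. Rrm2, Tk1 and Tyms, for enzymes of nucleotide supply, changed by −3.06 ± 0.22, −3.05 ± 0.19 and −2.53 ± 0.18, and Rfc2, a clamp loader subunit, rose by 0.87 ± 0.09 (edgeR adjusted p = 4.57e-09). Of 14 tested CDK inhibitors and cyclins of G1 7 were lower and 6 higher. Cdkn1a, for the inhibitor p21, rose from 264 ± 19.0 to 817 ± 93.6 CPM at 24 h and was highest relative to 0 h at 3 h (2.41 ± 0.12, edgeR adjusted p = 1.37e-14). Cdkn2c, Ccne2 and Cdk4, an inhibitor, an S phase cyclin and a G1 kinase, changed by −1.63 ± 0.19, −1.56 ± 0.21 and −1.03 ± 0.13. In KO at 24 h, 33.0% of all genes were lower and 32.8% higher. There 32 of 37 kinetochore genes were lower and 1 higher, 18 of 20 spindle and cytokinesis genes were lower and 1 higher, and 3 of 4 condensin subunits and 10 of 11 CDK1 regulators were lower and 0 higher. Of the anaphase-promoting complex genes 6 were lower and 3 higher, of the cohesin group 9 and 2, of the MuvB to E2F regulators 11 and 5, of the replication genes 30 and 4, and of the CDK inhibitors and G1 cyclins 5 and 5.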

How the data were processed

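The deposited table holds expected counts of Ensembl genes for 40 QuantSeq 3′ libraries. The values are not normalized and are all whole numbers. The submitters' processing notes name RSEM 1.3.3, STAR 2.7.10a, UMI-tools 1.1.2, cutadapt 3.7 and FastQC 0.11.9, and the genome build GRCm39. Neither the settings nor the annotation release, the use of strand and the treatment of molecular identifiers is stated in what was used here.

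Tests used edgeR 4.0.16 in R 4.3.3: TMM scaling, filterByExpr (minimum count 10), robust quasi-likelihood fits with a prior count of 0.125, two-sided tests and Benjamini-Hochberg adjustment over all genes tested, at 0.05. LPS changes were fitted on the 20 libraries of a genotype, KO against WT on the 8 libraries of a time, and interactions on 16 libraries. SE was taken as the size of the log2 fold change divided by the root of edgeR's F. Symbols came from GENCODE vM21, and 1 listed gene outside the 40 (Lin54) was unmatched. All 60 replicate pairs differed by more than counting noise (chi-square per degree of freedom 2.34 to 18.9). The fits were tested on simulated data.

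The mitosis genes and the other lists were chosen with earlier results of these data known. Genes described by sample or group are, in each role group, those with the largest and smallest change in WT at 24 h, and those whose KO and WT values did not overlap at 2 or more times. From the other lists up to 3 called genes with the largest change and 1 with the most opposite change were named, at a mean of at least 5 CPM. Bub1b and Racgap1 stand for role groups whose leading gene had no printable CHR, and the sequence for 1 role group is not reported here. Alternatives were RLE scaling, DESeq2 1.42.0, no filter, each replicate left out, a replicate block, 1 fit of all 40 libraries, and omission of the male replicates.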

Additional observations from a re-analysis of the deposited data

Results flagged for a closer look

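The sum of the mitosis genes and the genes described by sample were searched for a library far from the other 3 of its group by Dixon's ratio, where the group's mean was 5 CPM or more, and 5 of 138 groups had one. Chance alone gives such a library in about 1 in 20 groups. The summed CPM of the mitosis genes in KO at 3 h was 2511 in KO 1 and 2673 to 2701 in the others. Bub1b in KO at 0 h was 13.7 CPM in KO 4 and 19.5 to 20.7 CPM in the others. Cenpa in KO at 3 h was 86.2 CPM in KO 4 and 64.7 to 67.8 CPM in the others. Cenpa in KO at 24 h was 70.0 CPM in KO 2 and 41.1 to 42.8 CPM in the others. Tpx2 in WT at 24 h was 45.5 CPM in WT 1 and 58.9 to 60.7 CPM in the others.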

How the results depend on the processing

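The counts of mitosis genes lower than at 0 h kept within 1.5 times their reported values under RLE scaling, DESeq2, no filter, omission of each replicate, a replicate block, 1 fit of all 40 libraries and omission of KO 3 and WT 4. With 1 replicate left out, 31 to 34 were lower at 3 h in WT, 38 to 40 at 6 h, 39 to 40 at 12 h and 40 at 24 h. The step from 12 h to 24 h was less stable: with 1 replicate left out, 5 to 7 WT genes were lower (8 with all) and 2 to 5 higher (6 with all), and 9 to 15 KO genes were higher (17 with all). Without KO 3 and WT 4, 9 KO genes were higher. These fits hold fewer libraries. Without the filter on low counts, edgeR called 1 mitosis gene in KO against WT at 3 h (Mki67) and 1 at 12 h (Top2a), and the cause was not tested. At single genes, Ccnb2 at 3 h in WT lost its call under RLE scaling (edgeR adjusted p = 0.0675), DESeq2 (0.119) and 1 fit of all 40 libraries (edgeR, 0.0617). The Ccnb2 call was also lost without replicate 1, 2 or 4 (edgeR adjusted p = 0.0684, 0.265 and 0.0579). Birc5 at 3 h in WT lost its call under RLE scaling (edgeR, 0.0526) and without replicate 2 or 3. Top2a at 3 h in WT gained a call without replicate 4 (edgeR adjusted p = 0.0276) and in 1 fit of all 40 libraries (edgeR, 0.0374). Cdca8 from 12 h to 24 h in WT gained a call, as higher, without the filter on low counts (edgeR, 0.0301). It also gained that call without replicate 4 (edgeR, 0.0217) and in 1 fit of all 40 libraries (edgeR, 0.0386). Smc4 from 12 h to 24 h in WT lost its call under RLE scaling (edgeR, 0.0612) and DESeq2 (0.0614). Its call was also lost in 1 fit of all 40 libraries (edgeR, 0.0822) and without any 1 replicate.

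Replicate numbers are shared between groups, but the labels do not say that they mark an animal, and same-numbered libraries correlated in their deviations from the group means by −0.01 to 0.44 in WT and −0.09 to 0.35 in KO. Of 40 comparisons each, 35 in WT and 30 in KO were best with the own number. Between genotypes, same-numbered libraries correlated by −0.23 to 0.13, and 3 of 20 were best with the own number. Xist was low in all 10 libraries of KO 3 and WT 4 and in no other library. Within a genotype the numbers thus carry a link between times. The main LPS fits did not use that link, and the block fits did. With the replicate block, 34, 40, 40 and 40 genes were lower at 3, 6, 12 and 24 h in WT and 34, 38, 39 and 40 in KO. From 12 h to 24 h, 8 were lower and 5 higher in WT, and 6 lower and 18 higher in KO. With the block, 0 were called between genotypes. For KO against WT at a single time, the block joined KO and WT libraries of the same number, which the labels do not link. These pairs are arbitrary, so that fit adds no check of the main result. At 24 h the lowest genes rest on few counts (in WT 11 for Cdc20, 17 for Ccnb2, 19 for Kif2c and 21 for Kif20a), which limits how well the size of their falls is known.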
